A study of Mus musculus with 9 samples.

Results

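The 6 genes described here code for 14-3-3 proteins: Ywhab (14-3-3 beta), Ywhae (epsilon), Ywhag (gamma), Ywhah (eta), Ywhaq (theta) and Ywhaz (zeta). They were chosen by name, and each matched 1 row, so that all 6 were found among the 16921 gene identifiers of the table. 14-3-3 proteins are small acidic proteins that pair into cup-shaped dimers and hold other proteins at phosphorylated serines or threonines. Their family members bind overlapping sets of partners, and a bound partner can be kept from other proteins, moved between compartments or shielded from phosphatases. One such partner is tristetraprolin (TTP, gene Zfp36), a zinc finger protein that binds AU-rich elements in the 3′UTRs of cytokine mRNAs and brings about their decay. The kinase MK2 phosphorylates TTP after LPS, and the phosphorylated serines are docking sites for 14-3-3. The measurements are ribosome footprints on the mRNAs of the 14-3-3 proteins. They do not measure the binding of any 14-3-3 protein to TTP.

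The series holds 9 RiboSeq libraries, 3 for each of 3 conditions. All cells came from bone marrow-derived macrophages (BMDMs) of TTP-deficient mice, grown in M-CSF, immortalized with hcmyc and hRasG12V and taken as CD11b and F4/80 positive cells. One line was transduced with an all-in-one tet-inducible vector for GFP, one with the vector for GFP-TTP and one with that for GFP-TTP-AA, in which both MK2 sites of TTP are alanines (S52A and S178A). All libraries, those of the GFP cells included, had doxycycline (1 µg/ml) for 6 h and LPS (1 µg/ml) for 1 h, and no library without LPS or doxycycline was analysed here. Each condition is 1 transduced line, so the line and its construct cannot be told apart. In such bulk libraries a change in footprints per mRNA, in mRNA per cell and in the make-up of the cells cannot be told apart either, and total RNA libraries were not analysed here.

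The AA mutant removes the serines of the codons that stand in capitals in the reference sequence of Zfp36 (GRCm38, minus strand, coding sequence in its second exon), shown because these sites make TTP a 14-3-3 partner. The alanine codons of the vector are not given in the sources used here.
Codon of S52A, chr7:28378350-28378376: ggccgctccactAGCctggtggagggc
Codon of S178A, chr7:28377972-28377998: cgacaaagcatcAGCttctccggcttg

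The summed fitted values of the libraries ran from 2570292 to 12804501, and their size factors from 0.415 to 2.12. The deposited values are not observed counts but footprint counts as fitted by the authors' model, 1 per gene in each library, and each was divided here by its library's size factor. Within a condition the 3 values of a gene therefore differ by terms for the replicate number and the library, and their scatter is not replicate error. The error of each comparison is the standard error (SE) of the authors' model, which rests on 3 replicates per condition. Levels below are geometric means of the 3 values of a condition. The authors' model shrinks differences between conditions towards 0, so the levels, fold changes and intervals below can be shrunken as well. Zfp36 itself, which the constructs carry, was fitted at 443, 436 and 500.3 in the libraries of GFP cells. With GFP-TTP it was at 897, 882 and 1008, and with GFP-TTP-AA at 1487, 1456 and 1670. The fewest of these footprints were in GFP cells, as the labels imply. There were more in GFP-TTP-AA than in GFP-TTP cells (log2 fold change 0.73, SE 0.25, adjusted p = 0.0395 from the Wald test), an order that the labels do not give. That call was lost with a pseudocount of 10 (adjusted p = 0.0503) and with all 3 comparisons adjusted jointly (adjusted p = 0.0651). The paper reports similar amounts of both proteins. In GFP-TTP-AA against GFP-TTP, the amount of construct and its mutation cannot be told apart. Footprints on the construct and on the disrupted gene fall in the same row and cannot be told apart. The macrophage markers Itgam, Emr1, Csf1r, Cd68, Lyz2 and Cd14 had levels between 2292 and 71358 in every condition, with sums of 93568 in GFP, 73904 with GFP-TTP and 106346 in the mutant's cells. Of 12 markers of T cells, B cells, fibroblasts and epithelium, 7 had a row, and all of these lay between 0.137 and 0.761. Emr1, which codes for F4/80, had levels of 3663 in GFP, 2292 with GFP-TTP and 5339 in the mutant's cells, and the part of this difference between the lines in the results below was not tested.

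Ywhaq was the 14-3-3 gene with more footprints in GFP-TTP-AA than in GFP-TTP cells at the threshold (adjusted p = 0.0333 from the Wald test). Against GFP cells it missed the threshold (adjusted p = 0.0550). The call against GFP-TTP was lost with the chromosome median subtracted (adjusted p = 0.177) and with all 3 comparisons adjusted jointly (adjusted p = 0.0555). With that joint adjustment Ywhaq passed against GFP instead (adjusted p = 0.0396, Wald test). All of its coding sequence has copies elsewhere in the genome, so the levels of Ywhaq are uncertain. Its level was 754 in GFP, 765 with GFP-TTP and 1021 in the mutant's cells, 33.5% higher with the mutant than with GFP-TTP (95% interval of the fold change 1.10 to 1.61). None of the other 5 genes passed the test in any comparison, and in GFP-TTP against GFP none of the 6 did. The levels of Ywhae, Ywhab and Ywhag with the mutant were 0.884, 0.890 and 0.893 times those with GFP-TTP, differences that did not pass the test.

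Ywhaq codes for the theta protein, also called tau. Its fitted values divided by the size factor were 726, 727 and 812 in the GFP libraries, 738, 738 and 822 in the GFP-TTP libraries, and 987, 982 and 1098 in the GFP-TTP-AA libraries. The 3 GFP-TTP-AA values were the highest of the 9, which for fitted values restates the difference between conditions and is not agreement between replicates. The log2 fold change of GFP-TTP-AA against GFP-TTP was 0.42 (SE 0.14, 95% interval 0.14 to 0.69, adjusted p = 0.0333 from the Wald test, Benjamini-Hochberg over 10103 genes). Ywhaq was thus 1 of the 6 genes past the threshold, where 10.3% of all tested genes were past it in either direction, 5.59% higher and 4.66% lower. Since 1 of 6 is close to that background, the count says nothing particular about the family. Of all tested genes, 90.7% had a lower log2 fold change than Ywhaq in this comparison. The call was lost with a joint adjustment of the p-values of all 3 comparisons (adjusted p = 0.0555).

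Against GFP cells, the log2 fold change of Ywhaq in GFP-TTP-AA cells was 0.44 (SE 0.14, 95% interval 0.16 to 0.71), and its adjusted p of 0.0550 missed the threshold. It passed only with the joint adjustment (adjusted p = 0.0396, Wald test). Without that adjustment none of the 6 members passed in this comparison, where 3.02% of all tested genes did, 1.74% higher and 1.28% lower. The comparisons share libraries, so that the values of 0.42 and 0.44 are not independent of each other. The level of Ywhaq in GFP-TTP cells was 0.02 on the log2 scale from that in GFP cells (95% interval -0.25 to 0.30).

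**Figure D1:**
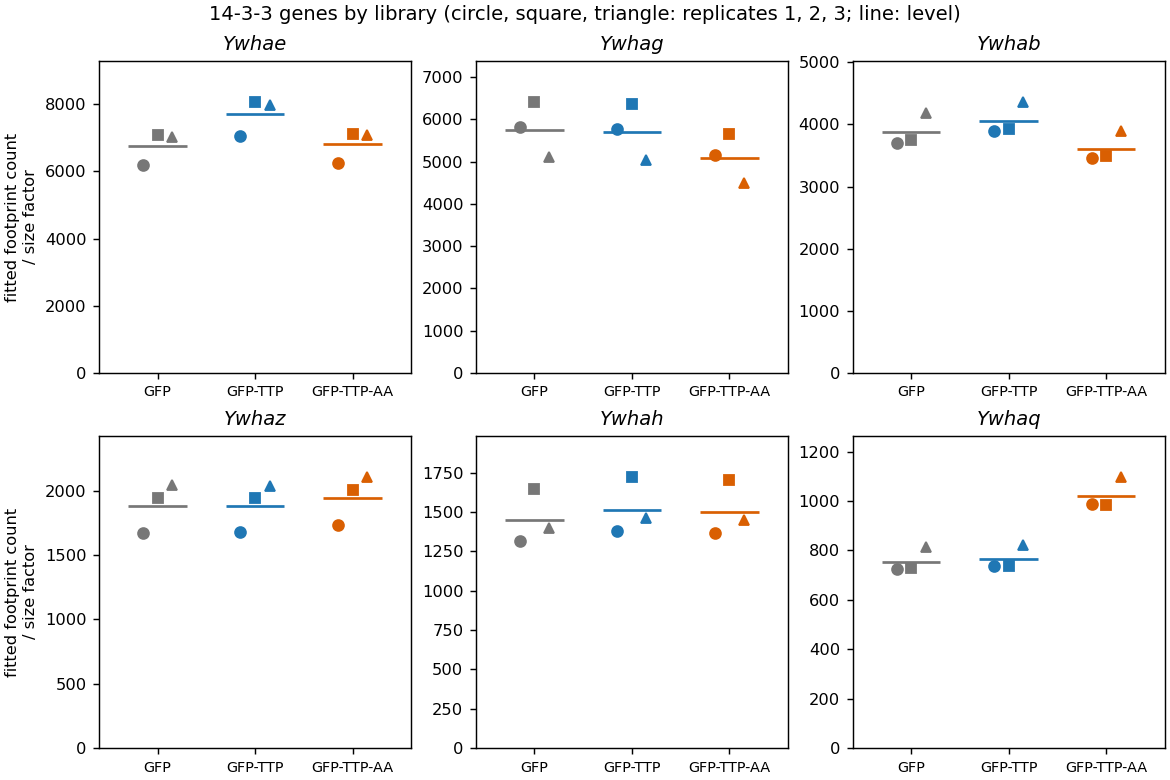
Fitted footprint count divided by the library's size factor (vertical axis, from 0, with its own scale in each panel) for the 6 14-3-3 genes in the 3 conditions; circles, squares and triangles are replicates 1, 2 and 3, and the line is the level of the condition. The GFP-TTP-AA libraries of Ywhaq sit between 982 and 1098, above the 726 to 822 of the other 6 libraries. The conditions overlap for the other genes, except that the highest GFP-TTP-AA library of Ywhab (3888) lies just below the lowest of GFP-TTP (3890). The values are fitted, so overlap or separation restates condition and replicate terms and is not a test.

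Ywhaq lies on chromosome 12 (GRCm38, 21390071 to 21417637, minus strand), and the median gene of that chromosome lay slightly above 0 in the same comparison. Over the 349 kept genes of this chromosome, the median log2 fold change of GFP-TTP-AA against GFP-TTP was 0.11, the third highest of 20 chromosomes, whose medians ran from -0.11 on chromosome 11 to 0.17 on chromosome 10. With the chromosome's median subtracted, the value of Ywhaq was 0.30 and its adjusted p was 0.177, past the threshold no longer. Ywhae, Ywhab and Ywhaz lie on chromosomes 11, 2 and 15, whose medians were -0.11, -0.06 and -0.09 in the same comparison. What moved these medians was not tested.

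Ywhae, the epsilon protein and the most divergent of the 6 in coding sequence, had the most footprints of the family (chr11:75732869-75765845, plus strand). Its values were 6180, 7082 and 7024 in GFP, 7069, 8076 and 7991 with GFP-TTP, and 6259, 7126 and 7074 in the mutant's libraries. The GFP-TTP libraries reached highest. The ranges of the conditions overlapped, which for fitted values only sets the replicate term beside the condition term and is no test. The log2 fold change was 0.19 for GFP-TTP against GFP (SE 0.12, 95% interval -0.04 to 0.42, Wald test adjusted p = 0.565), where 2.1% of all tested genes passed, 0.815% higher and 1.29% lower. With the mutant against GFP-TTP it was -0.18 (95% interval -0.40 to 0.05, adjusted p = 0.381), and against GFP it was 0.01 (95% interval -0.21 to 0.24).

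Ywhag, the gamma protein (chr5:135908409-135934616, minus strand), had values of 5807, 6416 and 5097 in GFP, 5766, 6351 and 5034 with GFP-TTP, and 5158, 5662 and 4502 in the mutant's libraries. The mutant's libraries reached lowest, and the ranges of the 3 conditions overlapped, which for fitted values is no test of a difference. The log2 fold change of GFP-TTP-AA was -0.18 against GFP (95% interval -0.46 to 0.10) and -0.16 against GFP-TTP (95% interval -0.44 to 0.12), with adjusted p = 0.659 and 0.552 from the Wald test. GFP-TTP and GFP cells differed by -0.01 (95% interval -0.29 to 0.27).

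Ywhab, the beta protein, is closest in coding sequence to Ywhaz within the family (chr2:163994960-164018588, plus strand). Its values were 3703, 3754 and 4179 in GFP, 3890, 3931 and 4365 with GFP-TTP, and 3465, 3490 and 3888 in the mutant's libraries. The mutant's libraries lay at 3888 and below and those of GFP-TTP at 3890 and above, and both overlapped the GFP libraries. For fitted values neither separation nor overlap is a test. The log2 fold change of GFP-TTP-AA against GFP-TTP was -0.17 (SE 0.12, 95% interval -0.39 to 0.06, Wald test adjusted p = 0.41), against GFP it was -0.10, and that of GFP-TTP against GFP was 0.07.

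Ywhaz, the zeta protein (chr15:36770770-36796929, minus strand), and Ywhah, the eta protein (chr5:33018816-33027966, plus strand), showed the least movement with the construct. Ywhaz had levels of 1881, 1879 and 1941 and Ywhah of 1447, 1514 and 1500 in GFP, GFP-TTP and GFP-TTP-AA cells. For Ywhaz the log2 fold changes were 0.00 for GFP-TTP against GFP, 0.05 for the mutant against GFP and 0.05 for the mutant against GFP-TTP, and for Ywhah they were 0.07, 0.05 and -0.01. The 95% intervals of the mutant against GFP-TTP ran from -0.24 to 0.34 for Ywhaz and from -0.28 to 0.26 for Ywhah. The 9 library values ran from 1674 to 2107 for Ywhaz and from 1314 to 1724 for Ywhah. Replicate 1 was the lowest of the 3 for both genes, an order that the fitted replicate term repeats in every condition.

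**Figure D2:**
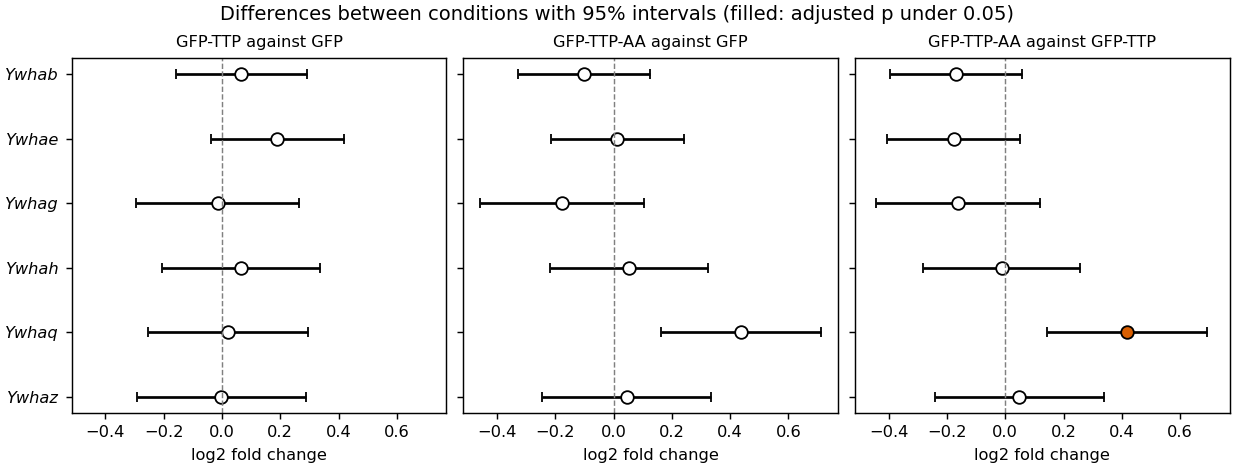
Log2 fold change (horizontal axis) of each 14-3-3 gene in the 3 comparisons, with the 95% interval from the standard error of the authors' model; filled points have an adjusted p under 0.05. Only Ywhaq in GFP-TTP-AA against GFP-TTP (0.42) is filled, and the interval of Ywhaq against GFP (0.16 to 0.71) lies above 0 as well.

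Over the 6 genes the median log2 fold change was 0.04 for GFP-TTP against GFP, 0.03 for GFP-TTP-AA against GFP and -0.09 for GFP-TTP-AA against GFP-TTP, where the medians of all tested genes were each 0.00. Of the 6, 4, 4 and 2 had a positive value in these comparisons. All 6 had SEs between 0.12 and 0.15, below the median SE of 0.19 over all tested genes in each comparison. At an unadjusted p under 0.05 there were 0, 1 and 1 members, beside 11.3%, 14.2% and 22.1% of all tested genes. Added up, the level of the 6 genes was 20452 in GFP, 21603 with GFP-TTP and 19965 in the mutant's cells. The share of Ywhaq in this sum was 3.69%, 3.54% and 5.12%, and that of Ywhae, the largest, 33.0%, 35.6% and 34.1%, so that Ywhaq stayed the smallest share in every condition.

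**Figure D3:**
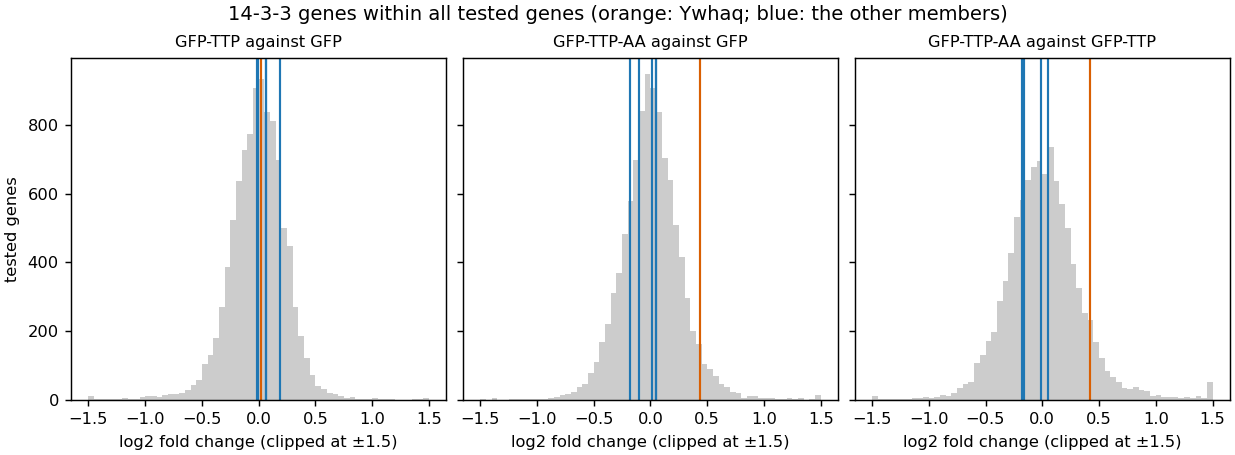
Number of tested genes (vertical axis) by log2 fold change (horizontal axis, values beyond 1.5 in either direction put at the edge) in the 3 comparisons, with the 6 14-3-3 genes as vertical lines, Ywhaq in orange. The blue lines lie within 0.19 of 0, and Ywhaq stands in the right flank at 0.44 and 0.42 in both comparisons with the mutant.

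In the fitted values, some members differed more between replicate numbers, which stand for the library date of the authors' model, than between conditions. The replicate differences have no SE, so this is a description and not a test. Ywhag was lower in replicate 3 than in replicate 2 by 0.33 on the log2 scale, and Ywhah was higher in replicate 2 than in replicate 1 by 0.32. For Ywhaq the replicate numbers differed by 0.16 at most, less than the 0.42 between GFP-TTP-AA and GFP-TTP. Over all kept genes the middle 90% of the differences between replicates 2 and 1 ran from -0.39 to 0.46 and those between replicates 3 and 2 from -0.52 to 0.49, and the members lay within both ranges.

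Compared per kb of coding sequence, the 6 genes ranked Ywhae, Ywhag, Ywhab, Ywhaz, Ywhah and Ywhaq, with mean levels per kb of 9225, 7403, 5191, 2575, 2007 and 1147. The median of 9927 kept genes was 148 per kb, and 89.5% of them lay lower than Ywhaq and 99.2% lower than Ywhae. The order held in all 3 conditions. Neighbours in it were apart in the fitted values of every condition, except that Ywhae and Ywhag overlapped in the GFP libraries and Ywhaz and Ywhah in the GFP-TTP libraries. The SEs refer to differences between conditions, so the order of the genes has no test.

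The 3 genes with the lowest levels are those whose coding sequence is repeated in the genome. Pieces of 28 bases, about the length of a ribosome footprint, were taken from every position of each coding sequence and searched on both strands of GRCm38. An exact copy elsewhere was found for 711 of 711 pieces of Ywhaq, 689 of 711 of Ywhaz (96.9%) and 468 of 714 of Ywhah (65.5%), against 3 of 717 of Ywhag (0.418%) and none of Ywhab and Ywhae. Most of the copies of Ywhaq, Ywhaz and Ywhah lay in processed pseudogenes: Gm2423 on chromosome 13 held 652 of the pieces of Ywhaq and Ywhaq-ps3 on chromosome 4 held 645, Gm4202 on chromosome 3 held 688 of those of Ywhaz, and Gm12428 on chromosome 3 held 465 of those of Ywhah. For Ywhaq, 693 pieces had 2 or more further copies, and the authors' mapping kept up to 2 alignments per read. Footprints of these genes can thus have been divided among several places or lost before counting, and their levels are uncertain beside those of Ywhae, Ywhag and Ywhab. Its part in the order of the levels was not tested.

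Few footprints were assigned to the 4 pseudogenes whose rows were used. Gm2423, Gm4202 and Gm12428 had mean levels of 0.143, 0.140 and 0.200, and Ywhaq-ps2, on chromosome 5, had 0.401% of the mean level of Ywhaq. The other copies, Ywhaq-ps3 among them, were not analysed here, and the part of repeated sequence in the difference of Ywhaq between conditions was not tested. The family members are less alike than gene and pseudogene: their coding sequences shared between 64.4% of the aligned bases (Ywhae and Ywhag) and 78.9% (Ywhag and Ywhah), and that last pair alone shared pieces of 28 bases, 3 of them.

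**Figure D4:**
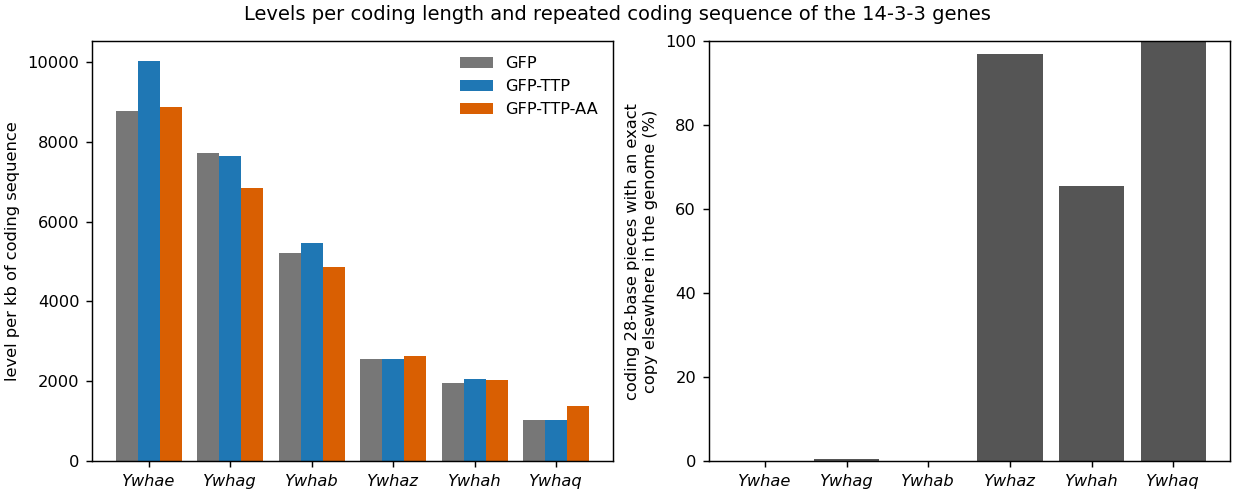
Left, level per kb of coding sequence (vertical axis, from 0) of the 6 14-3-3 genes in GFP, GFP-TTP and GFP-TTP-AA cells; right, percentage of the 28-base pieces of each coding sequence with an exact copy elsewhere in the genome. Ywhae, Ywhag and Ywhab are high on the left and at or below 0.418% on the right, and Ywhaz, Ywhah and Ywhaq are low on the left and at 65.5% or more on the right.

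TTP binds AU-rich elements, so the 3′UTRs were searched on the transcript strand for the pentamer ATTTA and for TATTTAT, which contains it, in the GRCm38 annotation. The 6 3′UTRs were between 771 bases (Ywhah) and 2586 bases (Ywhag) long, and each held ATTTA, 3 times in Ywhab, 4 times in Ywhae, Ywhag and Ywhaq, 2 times in Ywhah and 6 times in Ywhaz. Of 9927 kept genes 68.2% held ATTTA. Among genes with a 3′UTR of similar length, this share lay between 67.2% (Ywhah) and 94.3% (Ywhag), with 81.9% for Ywhaq. TATTTAT was present once in Ywhae and once in Ywhag and was not found in the other 4, and 28.7% of kept genes held it. Among genes with a 3′UTR of similar length, 28.7% held it for Ywhae and 46.1% for Ywhag. For the other 4 this share lay between 20.9% (Ywhah) and 39.2% (Ywhaz). The 4 windows of Ywhaq, which was past the threshold, are shown with ATTTA in capitals, and the 2 windows with TATTTAT, of genes that were not, with that motif in capitals.
Ywhaq, 288 bases after the stop codon, chr12:21391052-21391080, minus strand: agcacacttggtATTTAagtaatctgaac
Ywhaq, 367 bases after it, chr12:21390973-21391001, minus strand: tagtgcattacaATTTAaagtaattgtaa
Ywhaq, 1027 bases after it, chr12:21390313-21390341, minus strand: ttttataaaaccATTTAttatggctttgt
Ywhaq, 1076 bases after it, chr12:21390264-21390292, minus strand: ttaaggaacagaATTTActactttttgaa
Ywhae, 1127 bases after the stop codon, chr11:75765788-75765816, plus strand: tagcaacacaaTATTTATgtttaaattta
Ywhag, 644 bases after the stop codon, chr5:135910334-135910362, minus strand: gtagtttacagTATTTATacatgacagcc
In the window of Ywhae a further ATTTA lies at the right end. These windows are matches of letters, and whether TTP binds at them was not measured here. The genes with the longer motif, Ywhae and Ywhag, had log2 fold changes of 0.19 and -0.01 in GFP-TTP against GFP. Those without it had 0.07 (Ywhab), 0.07 (Ywhah), 0.02 (Ywhaq) and -0.0020 (Ywhaz). In GFP-TTP-AA against GFP-TTP, Ywhae and Ywhag had -0.18 and -0.16. Without the motif, the values there were -0.17 (Ywhab), -0.01 (Ywhah), 0.42 (Ywhaq) and 0.05 (Ywhaz). The part of the motif in these values was not tested.

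The rest of the family was nearly silent. Sfn, which codes for 14-3-3 sigma of epithelial cells, had normalised fitted values between 0.624 and 0.653 in the 9 libraries, below the filter of a mean of 10, and was not tested. Ywhaq-ps2 lay between 3.01 and 3.90 and was not tested either.

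A list of 9 genes held the TTP family and, for the phosphorylation of TTP, p38, MK2, MK3 and subunits of PP2A, and 8 were tested. All calls fell on the TTP family. None of the genes for the kinases and PP2A subunits passed the test in any comparison, so the shares below do not describe them. In GFP-TTP against GFP, 1 rose and 1 fell (25% of the list, beside 2.1% of all tested genes). In GFP-TTP-AA against GFP again 1 rose and 1 fell (25%, beside 3.02%), and in GFP-TTP-AA against GFP-TTP 1 rose (12.5%, beside 10.3%). The gene that rose was Zfp36 each time, whose row takes the footprints of the construct, and its call against GFP-TTP was lost with the joint adjustment (adjusted p = 0.0651). The one that fell was its relative Zfp36l2, which also binds AU-rich elements, with log2 fold changes of -0.82 and -0.63 (adjusted p = 0.000176 and 0.0109, Wald test). Mapkapk2, which codes for MK2, the kinase of both TTP sites, had a log2 fold change of 0.27 in GFP-TTP-AA against GFP-TTP (adjusted p = 0.233). Ppp2ca and Ppp2r1a, the catalytic and scaffold subunits of PP2A, a phosphatase that acts on TTP, had 0.05 and -0.02. The median of the 8 genes in this comparison was 0.17.

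Of 33 genes for other proteins that bind 14-3-3 when phosphorylated, such as Raf kinases, FOXO factors and CDC25 phosphatases, 28 passed the filter. None passed the test in GFP-TTP against GFP (27 tested, beside 2.1% of all tested genes) or in GFP-TTP-AA against GFP (28 tested, beside 3.02%), and 2 fell in GFP-TTP-AA against GFP-TTP, which is 7.14% of them beside the 10.3% of all tested genes. Cdc25a, a phosphatase that drives the cell cycle and is held by 14-3-3 after DNA damage, fell by 0.47 on the log2 scale (adjusted p = 0.0387, Wald test), and this call was lost with the joint adjustment (adjusted p = 0.0640) and with the chromosome median subtracted (adjusted p = 0.0507). Bcr, whose protein 14-3-3 binds at a phosphoserine, fell by 0.83 (adjusted p = 0.00498), with a mean of 10.6 that lies just above the filter. The 3 with the most footprints of those that did not pass were Rptor (-0.12), a subunit of mTORC1, Cdc25b (0.10) and Foxo3 (0.27), a transcription factor that 14-3-3 keeps in the cytoplasm. The median of the 28 was 0.05.

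Over the 9 fitted values, centred per gene, the gene nearest to Ywhaq among 7067 kept genes with a mean of at least 100 was Ncbp2, which codes for the small subunit of the nuclear cap-binding complex (Euclidean distance 0.0967 on the log2 scale, log2 fold change 0.46 in GFP-TTP-AA against GFP-TTP). The nearest to Ywhae was Eif3k, a subunit of initiation factor eIF3 (0.0530), and to Ywhab it was Zmpste24, a prenyl-protein protease (0.0343). Ywhag lay nearest to Adcy7, an adenylate cyclase (0.0632), Ywhah to Ndufs6 of respiratory complex I (0.0336), and Ywhaz to Pde6d, a prenyl-binding chaperone (0.0595). Each of these was closer than any member of the family, but the search covered 7067 genes against 5 of the family. The larger search alone favours this, so it says nothing particular about the family. Within it, Ywhab and Ywhae were nearest to each other at 0.295, and Ywhag and Ywhaq were farthest apart at 1.05. The 9 values share replicate terms and libraries, so these distances are a description of the fit and have no test.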

How the data were processed

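RiboSeq libraries of 3 conditions with 3 replicates each were analysed, grouped by the sample titles. Per the labels and the paper's methods, the authors digested lysates with ARTseq nuclease, depleted rRNA, mapped the reads with TopHat to mm10 (GRCm38) with up to 2 alignments per read, and fitted the counts per gene with DESeq2 by library date and condition. The submitters' processing notes list Trim Galore, TopHat2 2.0.12, HTSeq and DESeq2 1.6.3, and the methods give another TopHat version. The authors' deposited table, named as normalized counts, holds a signal, the fitted value of each gene and library: terms for condition, replicate number and library left a residual SD of 2.92e-15 of log2 values with an SD of 4.79. Observed counts were not analysed here. The deposited comparison tables also hold the authors' mean, fold changes, test statistics and p-values, which were not used. Only the deposited standard errors of their log2 fold changes were taken from them.

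Libraries were scaled by median-of-ratios size factors computed from the fitted values, and 10103 genes with a mean of at least 10 were kept. Log2 fold changes were differences of mean log2 values. Each was divided by the authors' SE for a two-sided Wald p, adjusted by Benjamini-Hochberg over the 9938 (GFP-TTP against GFP) or 10103 tested genes at a threshold of 0.05. The authors' model shrinks fold changes towards 0. The levels, fold changes and intervals given here rest on its fitted values and SEs and can be shrunken as well. The test planned for observed values could not be run, and the script was tested on simulated data. The p-values cover the spread between libraries of 1 line per condition. Footprint reads carry no molecular identifiers that are given in the sources used here, so precision reflects reads, not molecules.

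Members, gene lists, named genes and tests were chosen with earlier results of these data known. Named were the 6 members, the other Ywha genes and Sfn, Zfp36, list members past the threshold in a comparison, up to 3 others of each list with the highest mean, and the gene nearest to each member. A further gene list is not reported here. Gene positions, coding sequences and 3′UTRs came from GENCODE M21 on GRCm38, with 1 transcript per gene. Alternatives were no filter, a mean of at least 50, scaling to library totals, subtraction of chromosome medians, joint adjustment, a pseudocount of 10 and, chosen after seeing the data, sums with pseudogene rows. Python 3.11.15, numpy 2.4.6, pandas 2.3.3 and scipy 1.17.1 were used.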

Additional observations from a re-analysis of the deposited data

How the results depend on the processing

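No paired analysis was possible because the deposited values are fitted and leave no replicate spread to refit. The authors' model behind the SEs already has a term for library date, for which the replicate number stands here, so that the tests are blocked by it, and no fit without that term could be made. For the same reason no test without 1 replicate was run. Of 117 values of the 6 genes under the alternatives, 111 kept their direction and side of the threshold, and no log2 fold change moved by more than 0.12. No filter, the mean of at least 50 and the joint adjustment change only adjusted p-values, so no direction could turn there. Members other than Ywhaq had adjusted p of 0.366 or more (Wald test) under every alternative, far from the threshold. The count of 111 is thus a weak check. The sums with pseudogene rows, which held 0.401% of the level of Ywhaq or less each, could move little. The call of Ywhaq in GFP-TTP-AA against GFP-TTP was lost with the chromosome median subtracted (0.30, adjusted p = 0.177) and with p-values adjusted over the 3 comparisons together (0.42, adjusted p = 0.0555), so that 0 of the 6 genes then passed. Its adjusted p ran from 0.0325 to 0.177 over the alternatives. With the joint adjustment Ywhaq passed in GFP-TTP-AA against GFP instead (0.44, adjusted p = 0.0396), as 1 of the 6. Signs turned for 3 values near 0: Ywhae in GFP-TTP-AA against GFP (-0.0016 with scaling to totals), Ywhaq in GFP-TTP against GFP (-0.0034 with the chromosome median subtracted) and Ywhah in GFP-TTP-AA against GFP-TTP (0.0031 with the same). A pseudocount of 10 left 197 genes past the threshold in GFP-TTP-AA against GFP in place of 305. In GFP-TTP-AA against GFP-TTP, the 2 of the genes for 14-3-3 partners past the threshold became 1 with a mean of at least 50 (Cdc25a), with the chromosome median subtracted (Bcr) or with the joint adjustment (Bcr), and 0 with the pseudocount, and the 1 gene of the phosphorylation list, Zfp36, became 0 with the pseudocount or the joint adjustment. The causes were not tested, except that the stricter filter leaves out Bcr. With the members' SEs, a log2 fold change had to reach between 0.32 and 0.41 in GFP-TTP-AA against GFP-TTP, and between 0.37 and 0.48 in the other comparisons, to pass.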
